A study of Rattus norvegicus with 24 samples.

Results

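Endocannabinoid receptor and enzyme genes were examined in the left dorsal striatum of male Long Evans rats given the synthetic cathinone MDPV (methylenedioxypyrovalerone), which blocks the uptake of dopamine and noradrenaline. The 7 genes were taken by name from the 36174 genes on the array: Cnr1, Faah, Mgll, Dagla, Daglb, Napepld and Abhd6, together measured by 10 probes. Rats aged 80 to 90 days had 1 intraperitoneal injection on each of 5 days and their brains were removed 24 h after the last. The chronic group had MDPV on all 5 days, the acute group on the fifth day only after 4 of saline, and the saline group had no MDPV, with 1 mg/kg as the dose. Each group had 8 arrays, on 3 slides, with total RNA from whole dissected tissue, so that fewer cells of a type and less RNA per cell cannot be told apart. The design states 6 per group, and arrays that share a title letter were averaged, which gave 6 samples per group. The labels do not say which animal an array came from, so p-values measure the spread between these samples.

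Endocannabinoids are lipid messengers that postsynaptic neurons release on demand and that act backwards on presynaptic terminals. Cnr1 encodes the CB1 receptor, the main cannabinoid receptor of brain and abundant in striatal projection neurons. Dagla and Daglb encode the diacylglycerol lipases that make 2-arachidonoylglycerol, and Napepld encodes a phospholipase D that makes anandamide. Faah encodes the hydrolase that degrades anandamide, and Mgll and Abhd6 encode hydrolases that degrade 2-arachidonoylglycerol.

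Faah, Mgll and Napepld each had 2 probes, and the sequences below are shown because the agreement of such probes is one of the results. Coordinates are those of rat build rn4 in the files, whose exon and UTR annotation was not used here. One 60-base Faah probe was listed over 752 bases of chromosome 5, so its sequence is split in the genome. The other Faah probe lay 3215 bases further along and holds AATAAA, the letters of the usual polyadenylation signal, given in capitals in a stretch of 30 bases. The split Faah probe was at chr5:136325787-136326538, the Faah stretch with AATAAA at chr5:136329783-136329812, the dimmer Mgll probe at chr4:122904962-122905021 and the dimmer Napepld probe at chr4:8845640-8845699.
Faah, split probe: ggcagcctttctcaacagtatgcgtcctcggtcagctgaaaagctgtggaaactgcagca
Faah, AATAAA probe: aattcgaccataAATAAAataatttctgct
Mgll, dimmer probe: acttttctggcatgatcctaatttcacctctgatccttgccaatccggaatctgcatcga
Napepld, dimmer probe: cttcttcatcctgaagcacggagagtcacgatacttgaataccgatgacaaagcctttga

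The brighter Mgll probe was at chr4:122925187-122925246, 20165 bases from the dimmer one, and the brighter Napepld probe at chr4:8847944-8848003, 2244 bases from the dimmer one. The single probes were at chr5:50449223-50449282 for Cnr1, chr1:212733661-212733720 for Dagla, chr12:11403866-11403925 for Daglb and chr15:18847155-18847214 for Abhd6. Of the 10 probes, 9 were well above background on all 24 arrays and the dimmer Napepld probe on 14. Where a gene had 2 probes, the one with the higher mean stood for the gene. For Faah this was the AATAAA probe.

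The tissue was checked by its markers. Drd1 and Drd2, the dopamine receptors of striatal projection neurons, and Ppp1r1b (DARPP-32) were well above background on all 24 arrays. The array of saline replicate 4 stood apart. Its mean level of 5 hypothalamus markers was 1.87, against at most -0.73 on the other 23 arrays, and its level of 17 striatal projection neuron markers was 3.97, against 4.47 to 5.68. Ttr, the choroid plexus marker, ranged from -3.49 to 8.49 over the arrays, Avp, a hypothalamic peptide gene, from -3.29 to 4.80, and Slc17a7, the cortical glutamate transporter gene, from -6.29 to -0.45, all as log2 signal relative to the array's 75th percentile. Fits with the cortex and choroid plexus levels as covariates called 0 of the 7 genes and 0 of all 20902 genes. The part of the hypothalamic signal was not tested beyond leaving out saline replicate 4. Without that sample the differences from saline moved by more than 1.5 times for several genes, and 0 of 7 and 0 of all 20902 were called.

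None of the 7 genes differed between treatment groups beyond the spread of the samples. With limma and Benjamini-Hochberg adjustment over the 20902 genes tested, 0 of 7 passed an adjusted p of 0.05 in any of the 3 comparisons, and 0 of 7 had an unadjusted p under 0.05. The background was the same at the adjusted threshold, with 0% of all genes called in each comparison and by the F test over the 3 groups. At an unadjusted p under 0.05, limma called 2.94% of all genes in chronic against saline (615 genes), 1.65% in acute against saline (345), 2.49% in chronic against acute (520) and 1.76% by the F test (367). In chronic against saline, 3 members had higher and 4 lower means, with a median difference of -0.014, against 0.00035 over all genes. In acute against saline, 3 were higher and 4 lower (median -0.056, against 0.013 over all genes), and in chronic against acute, 4 were higher and 3 lower (median 0.016, against -0.011). The samples of the 2 groups overlapped for all 7 genes in each comparison. The share of all genes with such overlap is not given, so this describes the members only.

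**Figure D1:**
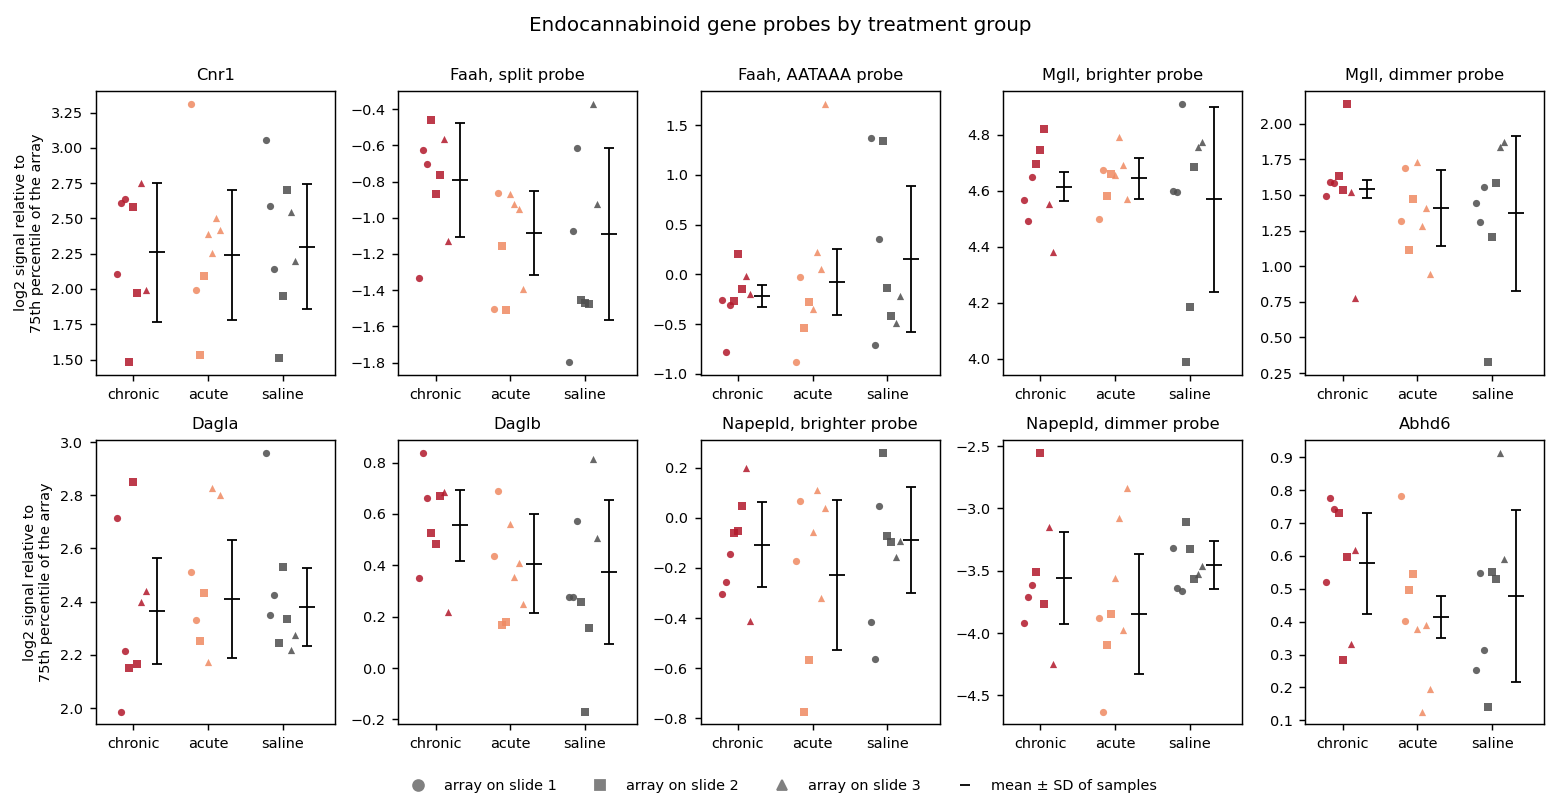
Log2 signal relative to the array's 75th percentile (vertical axis) of the 10 probes in chronic, acute and saline arrays (horizontal axis), with 1 point per array, its shape giving the slide, and bars for the mean ± SD over 6 samples per group (5 for acute Dagla). The 3 groups overlap in every panel, and 3 arrays sit at 1.34 or higher for the AATAAA probe of Faah while the others sit at or under 0.36.

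Cnr1, the receptor gene, varied widely between arrays but not by treatment. Its log2 relative signal ran from 1.48 (median 2.34) to 2.75 on chronic arrays, from 1.53 (median 2.32) to 3.31 on acute arrays and from 1.51 (median 2.37) to 3.06 on saline arrays. The lowest arrays, chronic replicate 4, saline replicate 4 and acute replicate 3, came 1 from each group. Cnr1 averaged 2.26 ± 0.49 in chronic, 2.24 ± 0.46 in acute and 2.30 ± 0.44 in saline samples (SD, n = 6 each). Chronic minus saline was -0.041 (95% interval -0.57 to 0.49, limma adjusted p = 1) and acute minus saline was -0.056 (-0.59 to 0.47, limma adjusted p = 0.999). Without saline replicate 4, chronic minus saline was -0.20 and acute minus saline -0.21. Its SD over the 24 arrays, 0.46, exceeded that of 81.3% of genes. Groups held 0.42% of that variance and slides 28.8%, against medians of 6.33% and 6.82% over all genes. The 3 lowest Cnr1 arrays were all on slide 2.

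The diacylglycerol lipase genes were steadier. Dagla ran from 1.99 (median 2.31) to 2.85 on chronic arrays, from 2.17 (median 2.43) to 2.83 on 7 acute arrays and from 2.22 (median 2.34) to 2.96 on saline arrays. Its spot on acute replicate 7 was marked an outlier, and the fit dropped that sample. Dagla chronic minus saline was -0.014 (95% interval -0.25 to 0.22) and acute minus saline was 0.028 (-0.22 to 0.28), so that the largest change inside these intervals was 1.21-fold. With saline replicate 4 left out, chronic minus saline was -0.041 and acute minus saline 0.00090. Daglb ran from 0.22 (median 0.59) to 0.84 on chronic arrays, from 0.17 (median 0.38) to 0.69 on acute arrays and from -0.17 (median 0.28) to 0.81 on saline arrays. The chronic median was thus the highest of the 3, with all ranges overlapping. Daglb averaged 0.56 ± 0.14 in chronic, 0.41 ± 0.19 in acute and 0.37 ± 0.28 in saline samples (SD, n = 6 each). Chronic minus saline was 0.18 ± 0.12 (SE), with unadjusted p = 0.157 and adjusted p = 1 by limma, and its value was 0.48 within slide 2 and -0.21 within slide 3.

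Napepld, the anandamide-forming enzyme gene, ran from -0.41 (median -0.10) to 0.20 on chronic arrays, from -0.77 (median -0.12) to 0.11 on acute arrays and from -0.56 (median -0.10) to 0.26 on saline arrays by its brighter probe. The 3 medians were close to each other, and the acute arrays reached lowest. Chronic minus saline was -0.021 (95% interval -0.30 to 0.26), and acute minus saline was -0.14 (-0.42 to 0.14). Acute minus saline was 0.26 within slide 1 and -0.70 within slide 2, and it was -0.034 without acute replicate 3. Leaving out saline replicate 4 gave 0.048 for chronic minus saline and -0.073 for acute minus saline. The dimmer probe gave -0.39 ± 0.20 (SE) for acute minus saline, with unadjusted p = 0.0672 and adjusted p = 1.00 by limma over 26259 probes.

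Faah, the anandamide-degrading enzyme gene, is described by each of its probes. The AATAAA probe ran from -0.78 (median -0.23) to 0.20 on chronic arrays, from -0.88 (median -0.15) to 1.72 on acute arrays and from -0.71 (median -0.18) to 1.37 on saline arrays. Acute replicate 8 at 1.72, saline replicate 1 at 1.37 and saline replicate 4 at 1.34 lay apart from the other 21 arrays, of which the highest was at 0.36. Those 3 arrays also had the 3 highest levels of the astrocyte list, at 3.67, 3.64 and 3.75. The relation of this probe with that list is given below, and its part in the group differences was not tested. Acute replicates 1 and 8, which share a title letter and were averaged, differed by 2.60. Faah averaged -0.22 ± 0.11 in chronic, -0.077 ± 0.33 in acute and 0.16 ± 0.74 in saline samples (SD, n = 6 each). Chronic minus saline was -0.38 ± 0.25 (SE; 95% interval -0.91 to 0.16), with unadjusted p = 0.157 and adjusted p = 1 by limma. Without saline replicate 4, chronic minus saline was -0.14 and acute minus saline 0.0033.

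The split probe of Faah gave differences of the opposite sign. It ran from -1.33 (median -0.73) to -0.46 on chronic arrays, from -1.51 (median -1.05) to -0.86 on acute arrays and from -1.80 (median -1.27) to -0.37 on saline arrays. The chronic arrays had the highest median, and the groups overlapped. By this probe chronic minus saline was 0.30 ± 0.19 (SE; limma unadjusted p = 0.142, adjusted p = 1), and acute minus saline was 0.0069. The 2 Faah probes did not follow each other. The 3 arrays highest for the AATAAA probe were at -1.40 (acute replicate 8), -1.80 (saline replicate 1) and -1.46 (saline replicate 4) for the split probe, among the lower values of that probe. Over 18 samples Pearson's r was -0.36 and Spearman's rho -0.24 (two-sided permutation p = 0.141 and 0.339, adjusted p = 0.143 and 0.339 over 3 probe pairs). Over the 24 single arrays r was -0.35 (rho -0.075). This negative r over arrays rests on the 3 highest for the AATAAA probe, since over the other 21 it was 0.24 (rho 0.22). Within slides 1, 2 and 3 it was -0.36, -0.18 and -0.71. Values of Faah are therefore those of the probe named.

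Mgll, the main 2-arachidonoylglycerol hydrolase gene of brain, ran from 4.38 (median 4.61) to 4.82 on chronic arrays, from 4.50 (median 4.66) to 4.79 on acute arrays and from 3.99 (median 4.64) to 4.91 on saline arrays. Saline replicates 4 and 5 were the lowest, at 3.99 and 4.19, followed by chronic replicate 8 at 4.38. Mgll averaged 4.61 ± 0.052 in chronic, 4.64 ± 0.072 in acute and 4.57 ± 0.33 in saline samples (SD, n = 6 each). Chronic minus saline was 0.044 (95% interval -0.20 to 0.29) and acute minus saline 0.075 (-0.17 to 0.32), the upper bound of the second being a 1.25-fold rise. Without saline replicate 4, both turned negative, at -0.072 for chronic minus saline and -0.041 for acute minus saline. The 2 Mgll probes followed each other, with r = 0.85 over 18 samples (two-sided permutation p = 0.00065, adjusted p = 0.00195 over 3 probe pairs) and rho = 0.59 (permutation p = 0.0118, adjusted p = 0.0353). Without the 2 samples farthest from the median r was 0.45, without saline replicate 4 it was 0.53, and within slides 1, 2 and 3 it was 0.38, 0.88 and 0.71. The 2 Napepld probes had r = 0.36 (rho 0.31; two-sided permutation p = 0.143, adjusted p = 0.143), 0.039 without the 2 farthest samples, and -0.58, 0.64 and 0.91 within the slides.

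**Figure D2:**
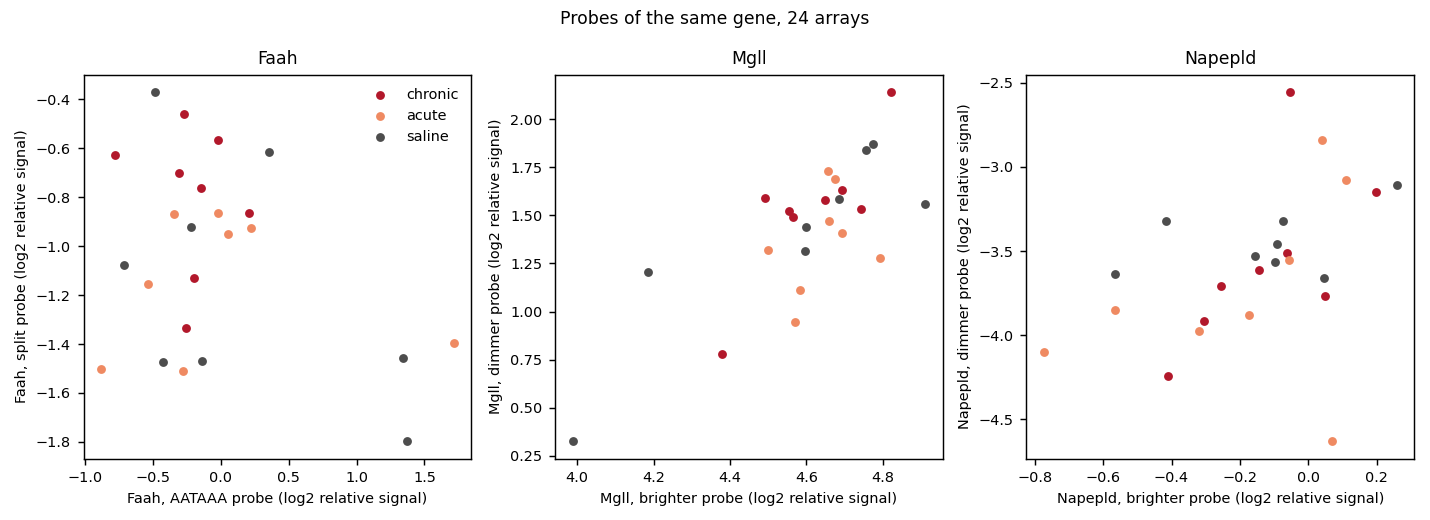
Log2 relative signal of the probe that stood for the gene (horizontal axis) and of the other probe (vertical axis) on 24 arrays, for Faah, Mgll and Napepld, coloured by group. The Mgll probes rise together (r = 0.76 over arrays), while the 3 arrays highest for the AATAAA probe of Faah are low for its split probe.

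Abhd6, the gene of a further 2-arachidonoylglycerol hydrolase, ran from 0.28 (median 0.61) to 0.78 on chronic arrays, from 0.13 (median 0.40) to 0.78 on acute arrays and from 0.14 (median 0.54) to 0.91 on saline arrays. The acute median was the lowest and the ranges overlapped. Chronic minus acute was 0.16 ± 0.11 (SE; 95% interval -0.060 to 0.39), with limma unadjusted p = 0.142, the smallest of the 21 member tests, and adjusted p = 0.961. Acute minus saline was -0.064 (-0.29 to 0.16), but 0.22 within slide 1 and -0.48 within slide 3. Chronic minus saline was 0.099, and without saline replicate 4 it was 0.032, with acute minus saline at -0.13.

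**Figure D3:**
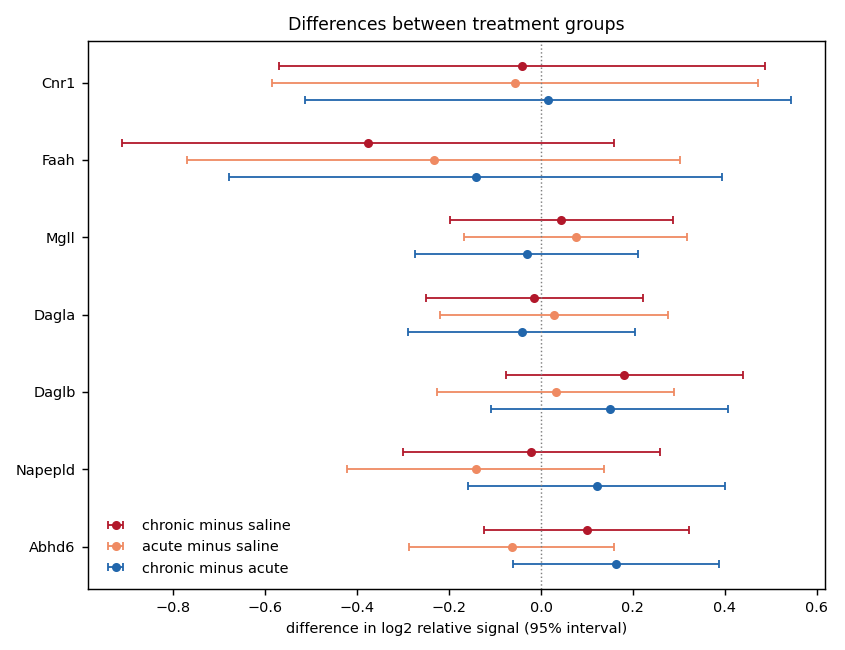
Differences in log2 relative signal between groups (horizontal axis) with 95% intervals from limma, for the 7 genes (vertical axis). All 21 intervals include 0, and those of Faah and Cnr1 are the widest.

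Between members, no pair passed the test with the probes that stood for the genes. Relations were computed for 21 pairs of members and for the 7 members with 6 marker lists, 63 in all, over 18 samples with permutation tests and adjustment over the 63. The AATAAA probe of Faah with Abhd6 had r = -0.67 and rho = -0.66 over 18 samples (two-sided permutation p = 0.00329 and 0.00392, adjusted p = 0.0657 and 0.0582), -0.47 without the 2 farthest samples, -0.53 without saline replicate 4, and -0.85, -0.82 and -0.62 within the slides. Over the 21 arrays without the 3 that stood apart it was -0.74 (rho -0.67), given without a test because the arrays were chosen by their Faah value. The split probe of Faah with Abhd6 had the opposite sign, with r = 0.44 and rho = 0.22 over 18 samples (permutation test, adjusted p = 0.226 for r). The split probe with Daglb had r = 0.83 and rho = 0.84 over 18 samples (permutation test, adjusted p = 0.00252 for r over 63 relations), a probe choice made after the data were seen.

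The relation that passed, by r and not by rho, was that of Mgll with the cortex list, the mean of 7 measured markers of cortical neurons. Over 18 samples r was 0.86 (two-sided permutation p = 1e-05, the smallest 100000 permutations can give, adjusted p = 0.00063) and rho was 0.67 (permutation p = 0.00283, adjusted p = 0.0582). Without the 2 samples farthest from the median, r was 0.63, and within slides 1, 2 and 3 it was 0.59, 0.92 and 0.81 over arrays. Without saline replicate 4 r was 0.78 (permutation test, adjusted p = 0.0277). Of all genes, with Mgll and the markers of the list not left out, 0.48% had an r with this list at least as high. The 3 arrays lowest for Mgll were the 3 lowest for the cortex list, saline replicate 5 at -3.31, chronic replicate 8 at -3.04 and saline replicate 4 at -2.81, and they were the 3 highest for the choroid plexus list, at 2.77, 2.77 and 1.96.

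Other relations with lists did not pass after adjustment, and not all are given. The AATAAA probe of Faah with the astrocyte list had r = 0.68 and rho = 0.72 (permutation p = 0.00372 and 0.00118, adjusted p = 0.0657 and 0.0582). Within the slides r was 0.62, 0.88 and 0.70. It was 0.57 without the 2 farthest samples and 0.50 without saline replicate 4. By the split probe of Faah r was -0.17. The AATAAA probe also had r = 0.67 (rho 0.21) with the thalamus and septum list. With the striatal projection neuron list it had r = -0.67 (rho -0.45), and with the oligodendrocyte list r = 0.59 (rho 0.43). Mgll with the thalamus and septum list had r = -0.79 and rho = -0.30, with r = -0.33 without the 2 farthest samples. Daglb with the cortex list had r = 0.63 and rho = 0.62 (two-sided permutation p = 0.00417 and 0.00757, adjusted p = 0.0657 and 0.0795), with 0.70, 0.77 and 0.54 within the slides and 0.49 without the 2 farthest samples. Napepld with the striatal projection neuron list had r = -0.65 and rho = -0.64 (permutation p = 0.00856 and 0.00462, adjusted p = 0.0723 and 0.0582), with -0.86, -0.76 and -0.72 within the slides, -0.61 without the 2 farthest samples and -0.54 without saline replicate 4. With the oligodendrocyte list Napepld had r = 0.64 and rho = 0.50, with r = 0.35 without the 2 farthest samples. Abhd6 with the astrocyte list had r = -0.59 and rho = -0.65 (permutation p = 0.0126 and 0.00461, adjusted p = 0.0723 and 0.0582), with -0.75, -0.61 and -0.81 within the slides, -0.29 without the 2 farthest samples and -0.45 without saline replicate 4. Cnr1 with the striatal projection neuron list had r = 0.55 and rho = 0.28 (permutation p = 0.0146 and 0.260, adjusted p = 0.0756 and 0.555), and r rests on the 2 farthest samples, being 0.051 without them and 0.38 without saline replicate 4.

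**Figure D4:**
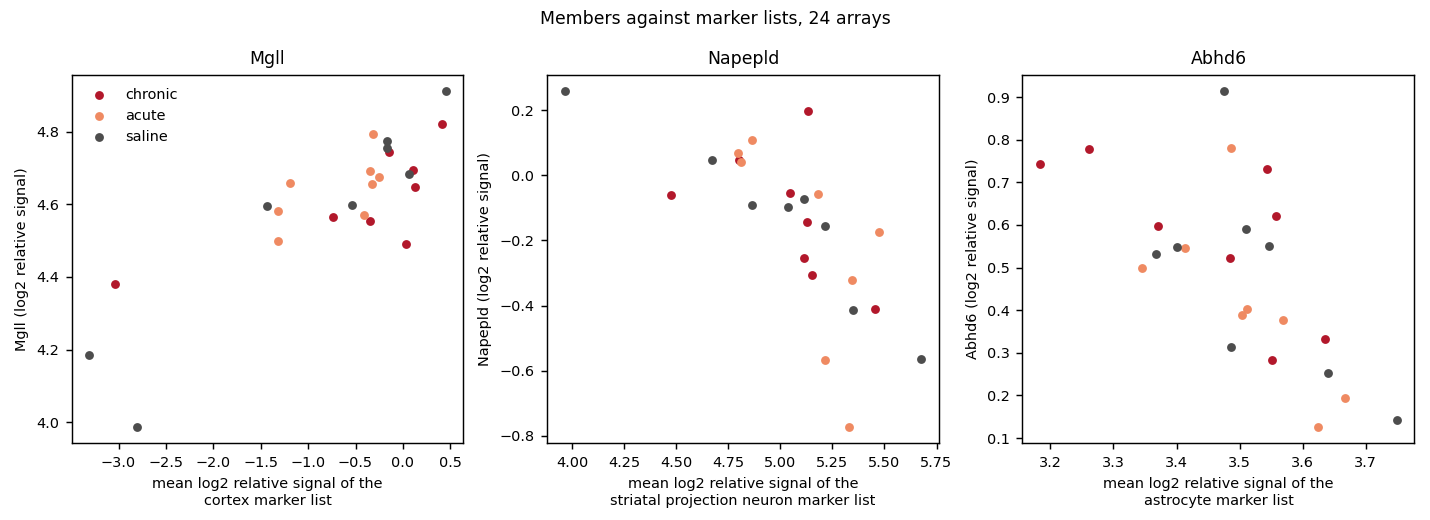
Log2 relative signal of Mgll, Napepld and Abhd6 (vertical axes) against the mean log2 relative signal of the cortex, striatal projection neuron and astrocyte marker lists (horizontal axes) on 24 arrays, coloured by group. The 3 arrays with the lowest cortex level are the 3 lowest for Mgll, and none of them is acute, the lowest acute array being at -1.32. Above them, and in the other panels, arrays of the 3 groups overlap.

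The genes most alike in pattern were taken as the 3 with the highest Pearson's r over the arrays among 12131 genes with a symbol, as a description. For Cnr1 they were Ldlrad4 (0.84), Tmem200b (0.83) and Jag1 (0.82), a Notch ligand gene. For Mgll they included Pip5k1c (0.92), a phosphoinositide kinase gene, and Mmp17 (0.92), a metalloproteinase gene. For Dagla, over 23 arrays, they were Ndfip2 (0.94), Kif3b (0.92), a kinesin gene, and Uba2 (0.92), a SUMO-activating enzyme gene. For Daglb they included Nmt1 (0.91), an N-myristoyltransferase gene, and Ly6e (0.90). For Napepld they were Pvalb (0.86), the parvalbumin gene of fast-spiking interneurons, Tmem108 (0.86) and Dpy19l1 (0.84). For Abhd6 they were Crlf3 (0.89), Ptpn9 (0.88), a tyrosine phosphatase gene, and Papola (0.86), a poly(A) polymerase gene. For the AATAAA probe of Faah they were Mfsd12 (0.87), Jak3 (0.84), a kinase gene, and Bcl6 (0.84), a transcriptional repressor gene, with the 3 arrays apart included, and over 18 samples r was 0.88 for Mfsd12, 0.77 for Jak3 and 0.71 for Bcl6. Without saline replicate 4, the r values of the genes named were between 0.79 and 0.94. Within slides they were between 0.66 and 0.99, except on slide 3 for Cnr1 with Jag1 (0.028) and Tmem200b (0.24) and for Napepld with Pvalb (0.42).

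Of 27 other genes of the pathway, 21 were tested and 0 passed an adjusted p of 0.05 in either direction in any comparison (limma), with 1 at an unadjusted p under 0.05. Cnr2, the CB2 receptor gene, was well above background on 4 arrays and Gpr55, a further lipid receptor gene, on 0, and neither was tested. Plcb3, a phospholipase C gene, averaged -2.75 ± 0.29 in acute and -2.42 ± 0.27 in saline samples (SD, n = 6 each), with a difference of -0.33 ± 0.15 (SE; limma unadjusted p = 0.0401, adjusted p = 0.999). Ptgs2, cyclooxygenase 2, which can oxidise endocannabinoids, averaged -0.41 ± 0.31 in acute and -0.76 ± 0.40 in saline samples (SD, n = 6 each), with a difference of 0.35 ± 0.17 (SE; limma unadjusted p = 0.0569, adjusted p = 0.999).

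The partners of the receptor and of the lipases were likewise not called. Cnrip1, which encodes a CB1-binding protein, had a difference of 0.21 in chronic minus saline and 0.013 in acute minus saline. Sgip1, whose product binds CB1, had 0.049 in chronic minus saline and 0.18 in acute minus saline. Grm5, the glutamate receptor gene upstream of 2-arachidonoylglycerol synthesis, had 0.17 in chronic minus saline and 0.054 in acute minus saline. These 3 genes had standard errors of 0.11 to 0.16. Plcb1, a phospholipase C gene whose product makes diacylglycerol, had 0.16 in chronic minus saline and 0.14 in acute minus saline. Abhd12, a further 2-arachidonoylglycerol hydrolase gene, had 0.021 in chronic minus saline and -0.039 in acute minus saline. In chronic minus saline, the N-acylethanolamine enzyme genes Gde1, Abhd4 and Naaa had 0.071, -0.084 and 0.065, and in acute minus saline they had -0.034, -0.11 and -0.016. Ppara, a nuclear receptor gene for these lipids, had 0.062 in chronic minus saline and 0.019 in acute minus saline. The median over the 21 genes was 0.049 in chronic against saline, -0.0068 in acute against saline and 0.056 in chronic against acute, against 0.00035, 0.013 and -0.011 over all genes.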

How the data were processed

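Total RNA was Trizol-extracted, Cy3-labelled and hybridised to 24 one-colour Agilent arrays. Per the file headers, the deposited intensity of each spot had been background-subtracted within the array by Feature Extraction. Its version is 10.7 per the submitters' processing notes but 10.1.1.1 in the file headers. The authors' deposited value table holds log2 values whose normalization is not given in the sources used here, and it was used as an alternative. Each signal was divided by the 75th percentile of its array, controls left out, and put on the log2 scale, without outlier-marked spots. The filter kept 26259 of 45598 probes, requiring signal well above background on a share of at least 0.5 of the arrays in 1 or more groups. Between 50.7% and 71.3% of spots were well above background per array, 0 were saturated, and the number of arrays limits the precision. Arrays that share a title letter (6 pairs) were averaged to 18 samples. The 3 groups were fitted together with limma 3.58.1 in R 4.3.3, with Benjamini-Hochberg adjustment over 20902 genes and a threshold of 0.05. The fit was tested on simulated data. Relations used two-sided permutation tests of 100000 permutations (scipy 1.17.1 and numpy 2.4.6 under Python 3.11.15). The genes named are the 7 members with all their probes, 12 pathway genes and 6 tissue markers whatever their values, any pathway gene past the threshold, and the 3 genes most like each member, of which some are not reported here. Members, lists and this rule were chosen with earlier results of these data known, and Plcb3 was named after its values were seen. Alternatives were normexp (offset 50) and quantile normalization, the deposited table, other probe filters and probe choices, other units and blocks, each slide alone, moderation, covariates and samples left out.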

Additional observations from a re-analysis of the deposited data

How the results depend on the processing

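No paired analysis was possible because the replicate numbers follow the order of the arrays within a group and carry no pairing. The member counts stayed at 0 genes past the threshold in each comparison and the F test, as did the member probes and the pathway genes, under every alternative run for them. The count over all genes tested was also 0 under each alternative, so the members did not differ from other genes in this. Within each of the 3 slides alone, 29 of 63 member differences had the opposite sign to the value over all slides. Over the 14 alternatives that use all slides and all samples of the groups compared, 261 of 282 kept their sign and 21 did not. Several of these, such as the other moderation and the fit of only the groups compared, change the estimated spread and not the difference. They could not change a sign. The smallest unadjusted p of a member was 0.0288 (Daglb, with the title letter as a random block, where the estimated correlation of arrays sharing a letter was -0.36, so that such arrays were less alike than others) and, with a sample left out, 0.0261 (Daglb, without saline replicate 7). The cause of the changes of sign was not tested. With normexp, Cnr1 was 0.0094 in acute minus saline and 0.044 in chronic minus saline, and Dagla 0.026 in chronic minus saline. With the authors' values Dagla was 0.0086 in chronic minus saline and Mgll 0.025 in chronic minus acute, which was 0.027 with quantile normalization and 0.051 with the mean of the probes. Chronic minus acute of Faah was 0.075 with the mean of the probes. With 24 arrays as independent samples, with the letter as a random block and with slide as a block, Napepld chronic minus saline was 0.014, 0.037 and 0.014, and Cnr1 chronic minus acute -0.046, -0.087 and -0.016. With cortex and choroid plexus covariates, Mgll was -0.042 and Napepld 0.12 in chronic minus saline, and Cnr1 -0.051 in chronic minus acute. With the other probe, chosen after seeing the data, Faah was 0.0069, 0.30 and 0.29 in acute minus saline, chronic minus saline and chronic minus acute, and Mgll 0.13 in chronic minus acute.

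With each sample left out in turn, 32 of 378 differences changed sign. The 378 include samples left out of the group not compared, which could not change a difference or its sign. In acute minus saline the ranges were -0.21 to 0.086 for Cnr1, -0.36 to 0.0033 for Faah, -0.041 to 0.14 for Mgll, -0.034 to 0.087 for Dagla, -0.032 to 0.12 for Daglb and -0.13 to 0.023 for Abhd6. In chronic minus saline they were -0.20 to 0.11 for Cnr1, -0.072 to 0.11 for Mgll, -0.084 to 0.033 for Dagla and -0.082 to 0.048 for Napepld, and in chronic minus acute -0.13 to 0.17 for Cnr1 and -0.11 to 0.020 for Dagla. Of 63 relations, 1 passed by r and 0 by rho in 18 samples. With 24 arrays 14 passed by r and 7 by rho, where arrays sharing a title letter were taken as independent. With residuals from the group means 11 passed by r and 2 by rho. With the other probes 2 passed by r, and 5 over 21 arrays without the 3 highest for the AATAAA probe of Faah, both settings chosen after seeing the data. Of these 5, 1 was Faah with Abhd6, which is no test because the arrays were chosen by their Faah value. The 21 were single arrays, and those sharing a title letter were again taken as independent. By r, the relation of Mgll with the cortex list was among those that passed each time. By rho it did not pass in 18 samples (permutation test, adjusted p = 0.0582). Without saline replicate 4, 0 relations passed by rho.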
